A study of Mus musculus with 7 samples.

Results

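The Müller glia homeostatic genes described here are Glul, Slc1a3, Aqp4, Kcnj10, Apoe, Clu, Abca8a and Dkk3. They are 8 of the 52550 genes in the count table, and were chosen by symbol as genes of Müller glia that handle glutamate, potassium, water and lipids. All 8 passed the filter on low counts, which left 20128 genes for testing. Total RNA, depleted of ribosomal RNA, was sequenced from whole retina of C57BL/6J mice at 12.5 weeks of age, with 1 library from both retinas of each mouse. The 4 WT mice carried normal Atxn7. The 3 SCA7 mice were homozygous knock-in animals (SCA7 140Q/140Q), in which both copies of the endogenous Atxn7 gene encode a tract of 140 glutamines under the gene's own promoter in all cells that use it. SCA7 is spinocerebellar ataxia type 7, a polyglutamine disease in which photoreceptors of the retina degenerate. The comparison asked how the retinal transcriptome differs between the genotypes, and each replicate is a separate mouse.

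Müller glia are the radial glia of the retina and span it from the vitreous to the photoreceptor inner segments. They clear glutamate released by neurons and convert it to glutamine, carry potassium and water away from active neurons through channels concentrated at their endfeet, and supply lipids in lipoprotein particles. In many retinal diseases they become reactive, a state in which intermediate filaments such as GFAP accumulate.

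The genes did not move in a single direction. Levels are given as CPM, counts relative to the library size (per 1e6 counts) after scaling by TMM, a method that centres most genes on no change. Clu, the secreted chaperone clusterin, was 2.06-fold higher in SCA7 retina, and Apoe, the main apolipoprotein of glia, was 1.34-fold higher. Aqp4, Kcnj10 and Abca8a were higher by between 1.23-fold and 1.26-fold. Glul, the glutamine synthetase and the gene of the set with the most counts, was lower at 0.781 of its WT level. For Slc1a3 and Dkk3 no difference between the genotypes was detected. With FC as the ratio of SCA7 to WT, genes with an adjusted p under 0.05 are called upregulated above an FC of 1.3 and downregulated below an FC of 0.7. By this call 2 of the 8 genes were upregulated, Apoe and Clu, where 7.47% of all genes tested were, and 0 were downregulated by edgeR, DESeq2 or limma-voom (1, Glul, was lower at an unadjusted p under 0.05), where 7.91% of all genes tested were downregulated by edgeR. Without the FC limits, at an adjusted p under 0.05, 5 of the 8 genes were higher, against a background of 14.2%, and 1 was lower, again against 14.2%. The median log2 fold change was 0.31 over the 8 genes and -0.02 over all genes tested. Every SCA7 library was above every WT library for 5 of the 8 genes, as it was for 19.3% of all genes, and every SCA7 library was below every WT library for 1, Glul, as for 18.3% of all genes.

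**Figure D1:**
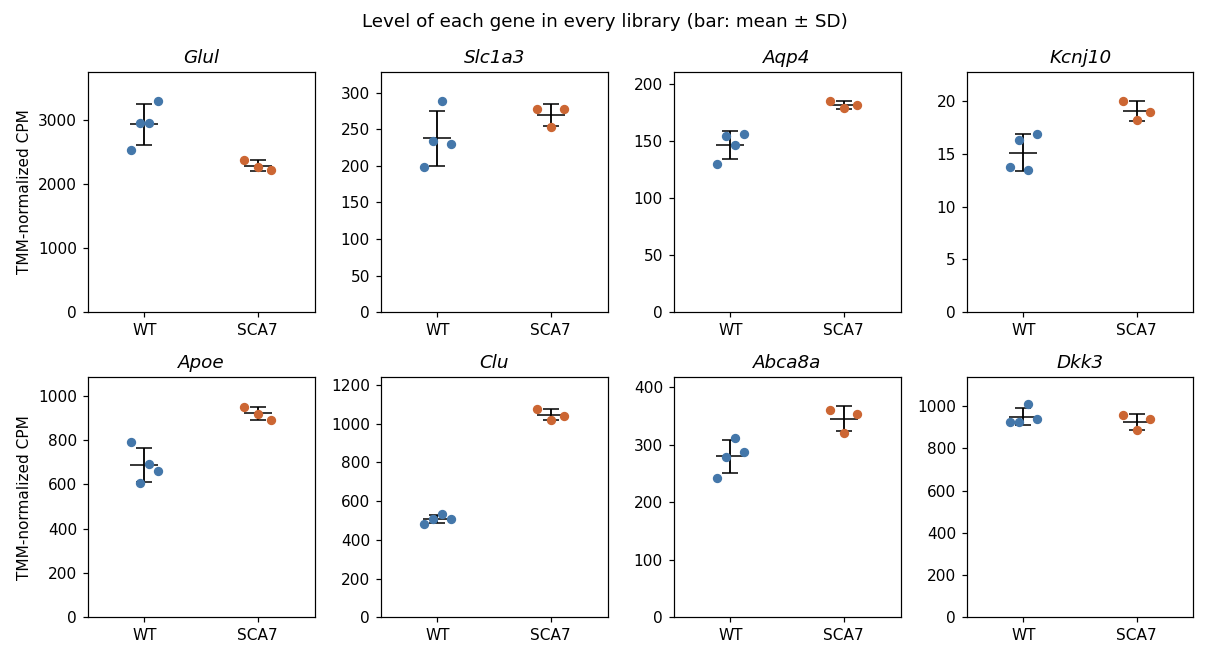
TMM-normalized CPM (vertical axes, linear from 0) of each gene in the 4 WT and 3 SCA7 libraries, where each point is a mouse and the bars give the mean ± SD. The SCA7 points lie above all WT points for Aqp4, Kcnj10, Apoe, Clu and Abca8a and below them for Glul, and overlap them for Slc1a3 and Dkk3.

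Library totals ran from 59902546 to 74733202 counts for the WT mice and from 56497675 to 96635832 counts for the SCA7 mice. TMM scaling factors were 0.890 to 0.974 for WT, against 1.07 to 1.09 for SCA7. The 10 rod markers were all downregulated, and their summed level was 36223 to 37841 CPM in the WT libraries, against 12514 to 15387 CPM for SCA7. Total RNA was taken from whole retina, so fewer cells of a type and less RNA per cell cannot be told apart, and neither can more Müller glia RNA and less RNA of other cells in a library of fixed size. The 8 genes took 0.509% to 0.593% of the unscaled counts in WT, and more, 0.631% to 0.676%, in SCA7. Without Glul the share was 0.261% to 0.272% in WT, against 0.388% to 0.417% for SCA7. After TMM scaling the summed levels of the 8 genes overlapped, at 5308 to 6088 CPM in WT and 5854 to 6205 CPM in SCA7. Atxn7 itself did not pass the test (log2 fold change -0.06, adjusted p = 0.636), and counts per gene cannot show the length of its glutamine tract.

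The 8 genes were compared with 14 other Müller glia markers, all of which passed the filter. In whole retina this comparison cannot show which cells the RNA came from. Summed, the 14 markers reached 1012 to 1215 CPM in the WT libraries and 1228 to 1261 CPM in the SCA7 libraries. Upregulated were 3 of them, Crym (log2 fold change 1.22), which encodes a thyroid hormone binding protein, Notch1 (0.84), a receptor that maintains glial and progenitor fate, and Cd9 (0.71), a tetraspanin. Without WT replicate 4 the upregulated markers were 5. Without the FC limits 8 of the 14 were higher at an adjusted p under 0.05. By edgeR 0 were downregulated (0 also at an unadjusted p under 0.05), and their median log2 fold change was 0.21. Counts of called genes per list by DESeq2 and limma-voom equalled those by edgeR for all lists given here, except that Dkkl1 was not called by DESeq2. Rlbp1, the retinaldehyde binding protein that is among the most abundant Müller glia transcripts, had 509 ± 47.8 CPM (SD, n = 4) in WT against 467 ± 4.94 CPM (SD, n = 3) in SCA7, and did not pass the test (adjusted p = 0.256). It is named after its values were seen.

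Levels of different genes are compared per length, as RPK, the count scaled by DESeq2 size factors and divided by the median transcript length in kb. In WT retina Glul led at 367545 ± 39548 RPK. It was followed by Apoe at 57966 ± 6379.7 RPK, Clu at 43251 ± 1876 RPK and Abca8a at 29583 ± 2970.0 RPK. Lower levels were found for Dkk3 (19522 ± 786 RPK), Slc1a3 (14802 ± 2308 RPK), Aqp4 (8284 ± 690.1 RPK) and Kcnj10 (193 ± 22.8 RPK), all as mean ± SD over the 4 WT mice. The ranges of neighbours in this order did not overlap in WT. In SCA7 the order was the same except that Clu, at 89750 ± 2796 RPK, passed Apoe, at 78455 ± 2474 RPK. The order depends on the length that is used. With the longest transcript, Dkk3 (19522 RPK) and Clu (19379 RPK) were not separated in WT, and Slc1a3 (3698 RPK) stood above Abca8a (3438 RPK) in WT, whereas their SCA7 means were 4229 and 4278 RPK. Glul stayed first and Kcnj10 last with either length.

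**Figure D2:**
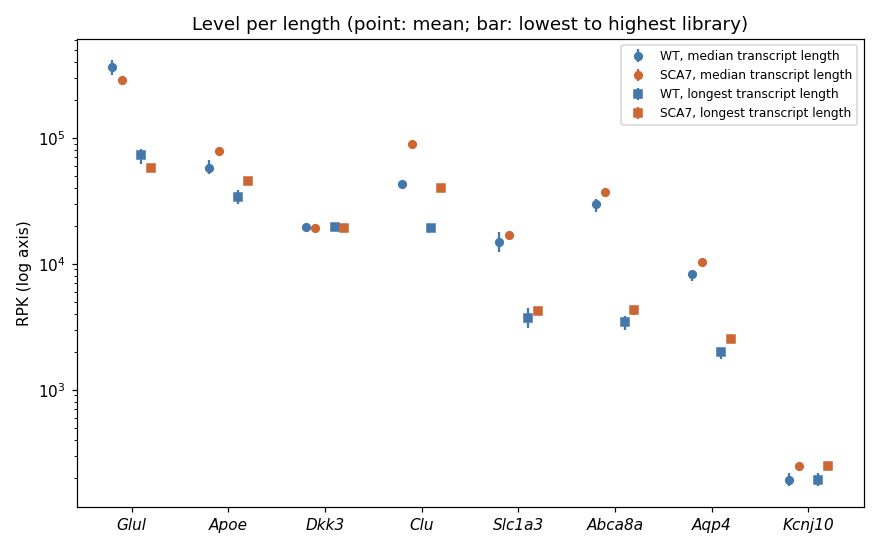
RPK of the 8 genes (log axis) in WT and SCA7, by median transcript length (circles) and by longest transcript length (squares), with points for group means and bars from the lowest to the highest library. By median length, Glul lies between 316690 and 413239 RPK in WT, Kcnj10 lies near 193 RPK, and Clu stands above Apoe in SCA7.

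Glutamate handling was represented by Slc1a3 and Glul, which act one after the other. Slc1a3 (ENSMUSG00000005360, chromosome 15, 8634124 to 8710764, minus strand, GRCm38) encodes GLAST, the transporter that takes up glutamate into Müller glia. Its level was 199, 233, 289 and 229.6 CPM in the WT libraries and 277, 252 and 278 CPM in the SCA7 libraries. The groups overlapped, because WT replicate 3 exceeded all SCA7 libraries. The log2 fold change of 0.18 (SE 0.11, 95% interval -0.05 to 0.41) did not pass the test (adjusted p = 0.227). Without WT replicate 3 it was 0.29, with an adjusted p of 0.00510.

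Glul (ENSMUSG00000026473, chromosome 1, 153899944 to 153909723, plus strand, GRCm38) encodes glutamine synthetase, which in the retina is found in Müller glia and turns the glutamate into glutamine. It was at 2527, 2948, 2945 and 3293 CPM in WT and at 2376, 2259.7 and 2225 CPM in SCA7. All SCA7 libraries lay below the lowest WT library, WT replicate 1. The mean was 2928 ± 314 CPM in WT (SD, n = 4) and 2287 ± 79.1 CPM in SCA7 (SD, n = 3). In the fit Glul fell by 21.9%, which is less than the FC limit asks for, with a log2 value of -0.36 (SE 0.09, 95% interval -0.56 to -0.16) and an adjusted p of 0.0126. Without SCA7 replicate 2 or SCA7 replicate 3 the adjusted p was 0.0568 or 0.0573.

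Of the 15 other genes of glutamate and glutamine handling, all tested, 3 were upregulated and 0 downregulated (1 was lower at an unadjusted p under 0.05), and the list's median was 0.07 on the log2 scale. Slc1a1, the neuronal glutamate transporter EAAC1, rose from 44.6 ± 3.36 to 65.5 ± 3.65 CPM (log2 fold change 0.55, adjusted p = 0.000115). Slc1a2, the transporter GLT-1, which in the retina is found mainly in cones and bipolar cells, rose from 253 ± 31.1 to 338 ± 17.4 CPM (0.42, adjusted p = 0.00483). Slc38a5, a glutamine transporter, rose from 0.563 ± 0.0745 to 0.872 ± 0.136 CPM (0.65, adjusted p = 0.0245). The call of Slc38a5 was lost without WT replicate 2 or 4 and without SCA7 replicate 2 or 3, and that of Slc1a2 without WT replicate 3, where its log2 fold change was 0.35.

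Potassium and water are handled by Kcnj10 and Aqp4, which are held together at the glial endfeet by the dystroglycan complex. Kcnj10 (ENSMUSG00000044708, chromosome 1, 172341210 to 172374085, plus strand, GRCm38) encodes Kir4.1, the main potassium channel of Müller glia. Its level was 13.8, 16.3, 13.5 and 16.9 CPM in WT and 20.0, 18.2 and 19.0 CPM in SCA7, and each SCA7 library was above each WT library. Of the 8 genes it had the fewest counts, from 718 to 1952 per library. The mean rose from 15.1 ± 1.75 to 19.1 ± 0.917 CPM, a log2 fold change of 0.33 (SE 0.09, 95% interval 0.14 to 0.53) with an adjusted p of 0.0158. The adjusted p was 0.0530 without WT replicate 1, 0.0788 without SCA7 replicate 1 and 0.0504 without SCA7 replicate 3.

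Aqp4 (ENSMUSG00000024411, chromosome 18, 15389496 to 15410982, minus strand, GRCm38), the water channel aquaporin 4, was at 129.6, 154, 147 and 156 CPM in WT and at 185, 178 and 182 CPM in SCA7. The SCA7 libraries lay close together and above all WT libraries, of which WT replicate 1 was the lowest. The mean rose from 147 ± 12.0 to 182 ± 3.37 CPM (log2 fold change 0.31, SE 0.07, 95% interval 0.16 to 0.46, adjusted p = 0.00628). It passed the test with any 1 library left out, at adjusted p values up to 0.0361. Kcnj10 and Aqp4 were thus higher by similar factors, 1.26-fold and 1.24-fold, both under the FC limit for upregulation. Without WT replicate 4 Kcnj10 passed that limit, at a log2 fold change of 0.39 and an adjusted p of 0.00425.

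Astrocytes of the nerve fibre layer also express Aqp4, Kcnj10 and Slc1a3. Of 7 astrocyte markers 5 passed the filter, and 2 of these were upregulated, Aldh1l1 (log2 fold change 0.65) and Pdgfra (0.62), with a median of 0.37. Of the 5 tested, 4 had log2 fold changes above 0 and 1 lay below, at -0.94, without passing the test. The defining astrocyte genes Pax2 and Gjb6 had at most 16 and 6 counts in any library and were not tested. The tested astrocyte markers summed to 53.9 to 65.4 CPM in the WT libraries, against 70.8 to 79.8 CPM for SCA7. The part of astrocytes in the values of Aqp4, Kcnj10 and Slc1a3 was not tested. WT replicate 1 stood apart in Gja1, the gap junction protein connexin 43, which is named after its values were seen. It reached 21.2 CPM there and at most 8.86 CPM in any other library.

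Of 9 other genes of potassium transport 0 were upregulated (0 were higher at an unadjusted p under 0.05 too) and 1 was downregulated. The list had a median of -0.33 on the log2 scale. Without the FC limits 4 of the 9 genes were lower at an adjusted p under 0.05, where 14.2% of all genes tested were. The downregulated gene was Kcnj13, which encodes Kir7.1, the potassium channel of the retinal pigment epithelium. It fell from 4.45 ± 1.92 to 0.624 ± 0.385 CPM (log2 fold change -2.91, adjusted p = 0.0125). Without SCA7 replicate 2 this call was lost, and without WT replicate 1 or with upper quartile scaling 2 genes of the list were downregulated. The 10 markers of retinal pigment epithelium summed to 172 to 251 CPM in the WT libraries, against 123 to 152 CPM for SCA7. Downregulated were 4 of them, among them Lrat (-3.21), Rpe65 (-2.29) and Ttr (-2.17), while 4 had log2 fold changes above 0, up to 0.56, and the median was -0.71. Without SCA7 replicate 2 the list had 2 downregulated genes. Their part in the value of Kcnj13 was not tested.

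Of the 11 genes of the dystroglycan complex, 1 was upregulated and 2 were downregulated, with a median of 0.04. Dag1, dystroglycan itself, rose from 39.4 ± 3.90 to 52.8 ± 1.94 CPM (log2 fold change 0.42, adjusted p = 0.00153), with its call lost without WT replicate 3 at a log2 fold change of 0.36. Sntb2, a syntrophin, fell from 121 ± 11.8 to 70.8 ± 1.31 CPM (-0.78, adjusted p = 1.59e-05). Of 8 further genes of water and volume regulation, Aqp1 was downregulated, from 219 ± 21.3 to 75.8 ± 9.57 CPM (-1.53, adjusted p = 8.25e-07), and 0 were upregulated (3 were higher at an unadjusted p under 0.05). Aqp1 is a water channel found in photoreceptors and some amacrine cells of the retina rather than in healthy Müller glia. The median of the water list was 0.01.

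Lipid supply was represented by Apoe, Clu and Abca8a. Clu (ENSMUSG00000022037, chromosome 14, 65968483 to 65981547, plus strand, GRCm38) encodes clusterin, also called apolipoprotein J, a secreted chaperone that travels with lipoproteins and restrains complement. It was at 479, 509.6, 534 and 510.1 CPM in WT and at 1077, 1020.4 and 1038 CPM in SCA7. The lowest SCA7 library was far above the highest WT library. The mean rose from 508 ± 22.2 to 1045 ± 29.0 CPM (log2 fold change 1.04, SE 0.07, 95% interval 0.90 to 1.18, adjusted p = 4.97e-07). Among all genes tested this change stood at the percentile of 98.3. It was between 0.77 and 1.06 and past the threshold under all 18 alternatives tried.

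Apoe (ENSMUSG00000002985, chromosome 7, 19696109 to 19699188, minus strand, GRCm38), which carries cholesterol between retinal cells, was at 789, 607, 690.0 and 658 CPM in WT and at 951, 919 and 892 CPM in SCA7. WT replicate 1, which was the lowest WT library for Glul, Slc1a3, Aqp4, Clu and Abca8a, was the highest for Apoe, and the groups did not overlap. The mean rose from 686 ± 76.9 to 920.4 ± 29.5 CPM (log2 fold change 0.42, SE 0.09, 95% interval 0.24 to 0.61, adjusted p = 0.00336). Without WT replicate 2, the lowest WT library, the log2 fold change was 0.37, which is under the FC limit, at an adjusted p of 0.0136. Microglia also express Apoe, and the 13 microglia markers were all upregulated. Their median log2 fold change was 1.08, with the largest changes in C1qc (1.53), C1qa (1.44) and C1qb (1.44). Together they reached 84.8 to 107 CPM in the WT libraries, against 183 to 205 CPM for SCA7. The part of microglia in the level of Apoe was not tested.

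Abca8a (ENSMUSG00000041828, chromosome 11, 110025634 to 110095978, minus strand, GRCm38) encodes a membrane transporter of the ABCA family, whose members move lipids. Its level was 243, 279, 311 and 287 CPM in WT and 361, 321 and 353 CPM in SCA7, with SCA7 replicate 2 only slightly above WT replicate 3. The mean rose from 279.9 ± 28.3 to 345 ± 21.6 CPM (log2 fold change 0.30, SE 0.08, 95% interval 0.12 to 0.49, adjusted p = 0.0185). The adjusted p was 0.0890 without SCA7 replicate 1 and 0.0724 without SCA7 replicate 3. The neighbouring paralog Abca8b, which is named for its shared sequence, was 40.8 ± 4.41 CPM in WT against 49.9 ± 5.18 CPM in SCA7 (log2 fold change 0.29, adjusted p = 0.0301).

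Of 25 further genes of lipoproteins and lipid export, 24 were tested (Apob was not, with at most 1 count in a library), and 6 were upregulated and 1 downregulated, with a median of 0.09. Abca1, the transporter that loads cholesterol onto apolipoproteins such as APOE, rose most, from 58.4 ± 5.48 to 192 ± 12.1 CPM (log2 fold change 1.72, adjusted p = 5.35e-08). Its sterol-sensing regulator Nr1h3, or LXRα, rose from 4.06 ± 0.635 to 6.67 ± 0.403 CPM (0.72, adjusted p = 0.00114). Lcat, which esterifies cholesterol on lipoproteins, and the apolipoprotein genes Apod and Apoc1 were low in WT, at 1.31, 1.62 and 1.40 CPM, and rose by log2 fold changes of 0.99, 1.15 and 0.62 (adjusted p = 0.000739, 0.000237 and 0.00928). The call of Apoc1 was lost without SCA7 replicate 2 (adjusted p = 0.0532). Lrp2, the endocytic receptor megalin, which takes up lipoproteins and clusterin, rose from 20.3 ± 1.91 to 34.3 ± 3.0 CPM (0.76, adjusted p = 4.48e-05). Pltp, the phospholipid transfer protein, fell from 18.7 ± 0.734 to 12.8 ± 1.25 CPM (-0.55, adjusted p = 0.000296), a call that was lost without SCA7 replicate 1.

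Dkk3 (ENSMUSG00000030772, chromosome 7, 112116017 to 112159057, minus strand, GRCm38) encodes a secreted protein of the Dickkopf family, whose other members regulate Wnt signalling. It was at 927, 926, 1009.6 and 937 CPM in WT and at 957, 885 and 939 CPM in SCA7, and the groups overlapped. With means of 950.0 ± 40.1 and 927 ± 37.4 CPM, the log2 fold change was -0.04 (SE 0.07, adjusted p = 0.735), and its 95% interval ran from -0.18 to 0.11. This interval lies apart from those of Clu and Apoe, which begin at 0.90 and 0.24. Of 8 other Dickkopf genes and receptors 6 were tested, since Dkk1 and Dkk4 had at most 6 counts and 0 counts in any library. Kremen1, a Dickkopf receptor, was upregulated from 35.2 ± 0.664 to 69.3 ± 2.04 CPM (log2 fold change 0.98, adjusted p = 1.82e-07). Dkkl1, a Dickkopf-like gene best known from testis, was downregulated, from 0.545 ± 0.0971 to 0.309 ± 0.106 CPM (-0.78, adjusted p = 0.0471), and the median of the list was 0.25. The call of Dkkl1 was lost without WT replicate 1, 2 or 3 and without SCA7 replicate 1 or 2. Without WT replicate 1 or 4 or SCA7 replicate 3, 2 genes of the list were upregulated.

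**Figure D3:**
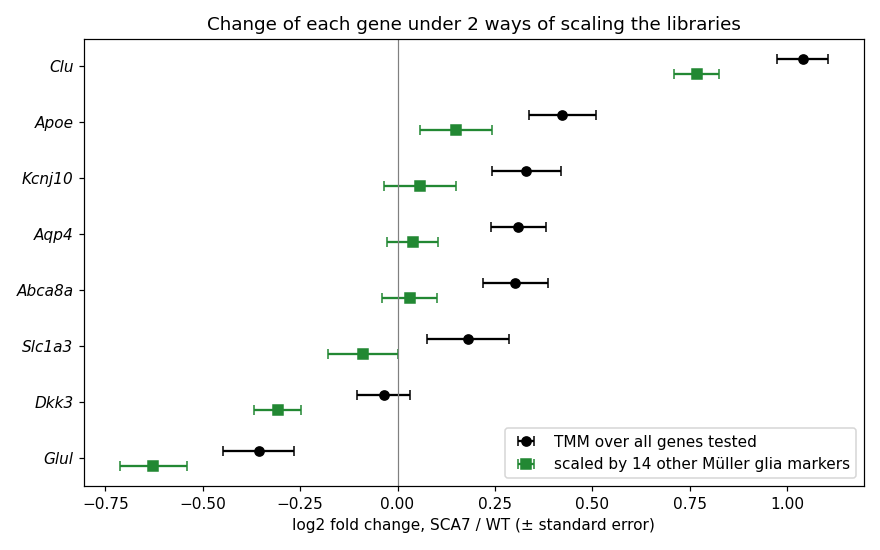
Log2 fold change (SCA7/WT) of each gene with its standard error (bars) under library scaling by TMM and under scaling by 14 other Müller glia markers. Under TMM, Clu stands at 1.04, Glul at -0.36 and Dkk3 at -0.04, and under the marker scaling all 8 genes shift downwards.

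The upstream sequence of genes that moved together and of Glul, which moved the other way, is shown to let the promoters be compared. The RefSeq windows (GRCm38.p6) run from 250 bases before to 50 bases after the transcription start, are written 5′ to 3′ on the strand of the gene, and were found for 5 of the 8 genes, Glul, Slc1a3, Kcnj10, Apoe and Abca8a. Capitals mark matches, on either strand, to the motifs searched, with positions counted from the start as 0. The windows printed are chr1:153899679-153899978 (plus strand) for Glul, chr1:172340960-172341259 (plus strand) for Kcnj10, chr7:19699139-19699438 (minus strand, the first of 3 windows) for Apoe and chr11:110095888-110096187 (minus strand) for Abca8a.
Glul: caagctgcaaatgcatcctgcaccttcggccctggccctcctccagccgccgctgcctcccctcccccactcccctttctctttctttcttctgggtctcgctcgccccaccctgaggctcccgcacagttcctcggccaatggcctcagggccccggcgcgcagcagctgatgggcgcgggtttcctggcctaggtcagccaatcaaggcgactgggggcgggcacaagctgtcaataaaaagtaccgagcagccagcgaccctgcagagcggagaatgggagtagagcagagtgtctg
Kcnj10: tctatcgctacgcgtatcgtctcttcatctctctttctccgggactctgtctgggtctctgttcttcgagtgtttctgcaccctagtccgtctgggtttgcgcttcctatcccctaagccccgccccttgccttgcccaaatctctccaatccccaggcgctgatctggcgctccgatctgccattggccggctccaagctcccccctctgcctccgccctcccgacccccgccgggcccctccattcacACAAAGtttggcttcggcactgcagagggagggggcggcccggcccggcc
Apoe: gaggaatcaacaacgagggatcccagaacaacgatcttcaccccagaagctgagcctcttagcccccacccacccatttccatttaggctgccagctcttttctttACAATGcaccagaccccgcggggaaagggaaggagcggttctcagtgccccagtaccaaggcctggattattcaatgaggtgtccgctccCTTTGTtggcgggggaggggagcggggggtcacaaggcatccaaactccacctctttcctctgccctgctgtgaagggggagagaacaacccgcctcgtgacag
Abca8a: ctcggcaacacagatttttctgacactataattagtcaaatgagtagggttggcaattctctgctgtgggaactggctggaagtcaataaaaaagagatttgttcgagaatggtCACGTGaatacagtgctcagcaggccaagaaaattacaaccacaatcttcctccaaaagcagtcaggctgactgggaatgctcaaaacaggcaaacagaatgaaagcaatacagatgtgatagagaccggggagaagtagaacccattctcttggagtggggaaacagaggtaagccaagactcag

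The Glul window, with a GC content of 64.3%, held none of the motifs searched. The Kcnj10 window (63.7% GC) held the SOX motif ACAAAG at position 0. In Apoe (57.7% GC) the SOX motif ACAATG was at -144 and ACAAAG was on the opposite strand at -54. Abca8a (44.3% GC) held the E-box CACGTG at -136. The Slc1a3 window, which is not printed, had a GC content of 45.3% and the STAT motif TTCNNNGAA at -96. Of all 32851 windows of the same length, 18.7% held ACAAAG, 12.6% ACAATG, 7.15% the E-box and 8.30% the STAT motif. The AP-1 motif TGANTCA (7.81% of all windows), the NFI motif (0.0365%) and the heat shock element (0.603%) were also searched on both strands and were in none of the 5 windows described. No match overlapped another. A match describes letters only. No motif was in all of the Kcnj10, Apoe and Abca8a windows.

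A ratio of counts within a library is free of library scaling and compares the genes with each other. Each of the other genes was set against Glul. Clu had 19.0%, 17.3%, 18.1% and 15.5% as many counts as Glul in the WT libraries and 45.3%, 45.2% and 46.6% in the SCA7 libraries. The mean ratio of Clu rose from 17.5% ± 1.49 (SD, n = 4) to 45.7% ± 0.806 (SD, n = 3), a log2 difference of 1.39. Apoe stood at 31.2%, 20.6%, 23.4% and 20.0% of Glul in WT, with WT replicate 1 well above the rest, and at 40.0%, 40.7% and 40.1% in SCA7. The ratio of Aqp4 went from 5.02% ± 0.213 to 7.95% ± 0.190 and that of Kcnj10 from 0.518% ± 0.0437 to 0.833% ± 0.0254. For Abca8a it went from 9.58% ± 0.766 to 15.1% ± 0.854, for Slc1a3 from 8.14% ± 1.19 to 11.8% ± 0.666 and for Dkk3 from 32.7% ± 3.57 to 40.5% ± 1.53. The ratio was higher in each SCA7 library than in each WT library for 7 of 7 genes, but Glul itself was lower in SCA7, and the same held for 47.5% of all other genes tested. It held also for Slc1a3 and Dkk3, whose own levels did not pass the test.

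In the exact two-sided permutation test of the genotype labels, p was 0.0286, the smallest that this design allows, for Aqp4, Kcnj10, Clu and Abca8a relative to Glul, and 0.0571 for Slc1a3, Apoe and Dkk3. Adjusted by Benjamini-Hochberg over the 7 ratios, the exact p values were 0.05 and 0.0571, so none was under 0.05. All 7 share Glul as the denominator and are not independent. With Slc1a3 as the denominator, the log2 differences were 0.12 for Aqp4, 0.15 for Kcnj10, 0.24 for Apoe, 0.11 for Abca8a, 0.85 for Clu and -0.23 for Dkk3. For Clu relative to Slc1a3 the exact p was 0.0286 and the adjusted p 0.133, and none of the ratios to Slc1a3 had an adjusted p under 0.05 in the exact permutation test.

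**Figure D4:**
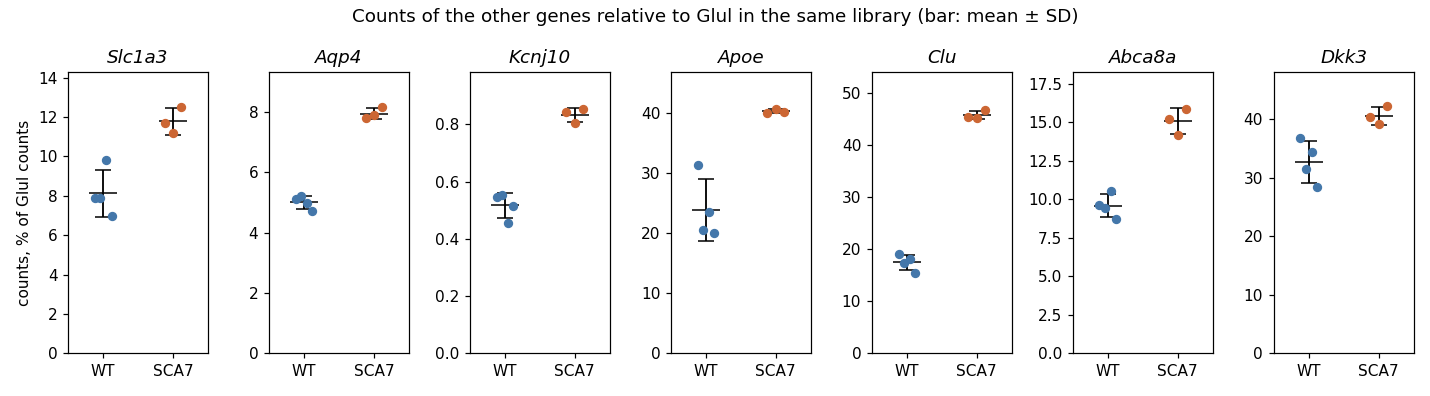
Counts of the other 7 genes as a percentage of Glul counts in the same library (vertical axes, linear from 0), with a point per mouse and bars for the mean ± SD. The SCA7 points lie above all WT points in each panel, as they did for 47.5% of all other genes tested, and Clu moves from 17.5% to 45.7% of Glul.

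Scaling the libraries by the other 14 Müller glia markers, an alternative chosen after the data were seen, asks how the genes changed relative to those markers. This scaling moved the median log2 fold change of all genes from -0.02 to -0.29. Clu was still higher, at 0.77 (adjusted p = 2.31e-06). Glul was lower at -0.63 (adjusted p = 0.000158), and Dkk3 was now lower at -0.31 (adjusted p = 0.00155), close to the median of all genes. Aqp4, Kcnj10, Apoe and Abca8a, at 0.04, 0.06, 0.15 and 0.03, no longer passed the test. Slc1a3, at -0.09, was within 1 standard error of 0 (adjusted p = 0.421). Without FC limits 1 of the 8 genes was higher and 2 were lower under this scaling, where 4.5% of all genes were higher and 49.4% were lower.

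**Figure D5:**
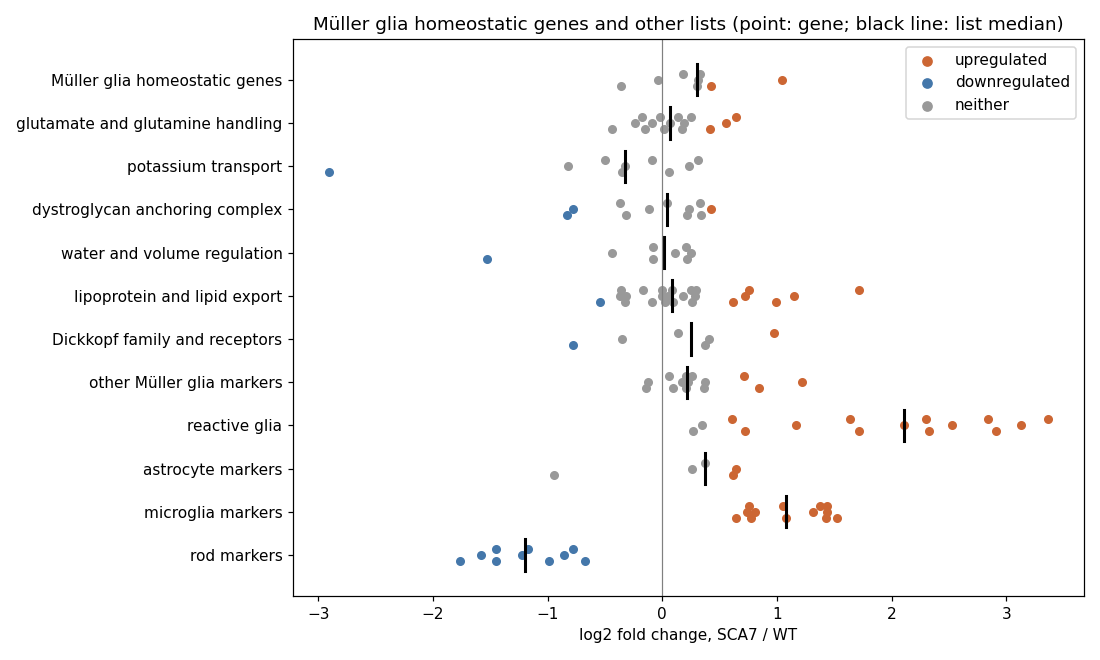
Log2 fold change (SCA7/WT, horizontal axis) of every tested gene of the Müller glia homeostatic set and of 11 other lists, with upregulated genes in orange, downregulated genes in blue and list medians as black lines. The homeostatic genes lie between -0.36 and 1.04 with a median of 0.31, well below the reactive glia list with its median of 2.11.

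By its median fold change the reactive glia list moved far more than the homeostatic genes. Of its 15 genes 13 were upregulated and 0 downregulated (0 were lower at an unadjusted p under 0.05), and the median was 2.11 on the log2 scale. The list summed to 445 to 483 CPM in the WT libraries, against 1005 to 1140 CPM for SCA7. The largest changes were in Serpina3n (3.36), a protease inhibitor of reactive astrocytes and Müller glia, Timp1 (3.13), an inhibitor of matrix proteases, and Fgf2 (2.91), a growth factor that protects photoreceptors. The median of the homeostatic genes stood at 0.31 beside it, and Clu, at 1.04, was the only homeostatic gene above 0.5. Clu and Apoe are also expressed outside Müller glia, so the lists of other cells are given beside them. Of 11 endothelium and pericyte markers 3 were upregulated (Kdr 0.69, Abcc9 0.69 and Cdh5 0.63) and 0 downregulated (1 was lower at an unadjusted p under 0.05), with a median of 0.28. Of 10 bipolar markers 2 were downregulated (Pcp2 -0.74 and Cabp5 -0.60), with a median of -0.30, and of 10 amacrine markers 1 was (Th -0.54), with a median of -0.28. The call of Th was lost without WT replicate 2 or 3 and without SCA7 replicate 1 or 2. Of 9 ganglion cell markers 0 were called by edgeR (3 were lower at an unadjusted p under 0.05), with a median of -0.10. For the 8 lens markers, 7 of them tested, 0 were called by edgeR (0 at an unadjusted p under 0.05), while their summed level ranged from 61.5 to 776 CPM across the WT libraries and from 45.1 to 1262 CPM across the SCA7 libraries. The rod markers with the largest changes were Gnat1 (-1.76), Nrl (-1.58) and Prph2 (-1.45), with a list median of -1.20.

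For the genes past the test, those with the most similar pattern were sought among 10058 genes of at least 10 CPM, as the smallest root mean square difference of log2 CPM, relative to the WT mean, over the 7 libraries. Nearest to Glul were Trpm1 (0.0449), the cation channel of ON bipolar cells, and Reck (0.0564). Nearest to Aqp4 were Syt11 (0.0168) and Syt1 (0.0344), both synaptotagmins, and nearest to Kcnj10 were Myh10 (0.0198), a non-muscle myosin, and Agap1 (0.0354). Nearest to Apoe were E130307A14Rik (0.0687) and Sdc4 (0.0738), a syndecan, nearest to Clu were Chl1 (0.0550), a neural adhesion molecule, and Syt15 (0.0581), and nearest to Abca8a were Usp11 (0.0326), a deubiquitinase, and Magee1 (0.0440). None of these genes is in the homeostatic set. With 2 groups of libraries, a small difference says mainly that the fold changes are alike.

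Shared sequence could move reads between copies of a gene. Of the 50-base windows of its transcripts, Glul shared 12.6% with other transcripts, most of them with the pseudogene Glns-ps1, which had between 46 and 80 counts. Abca8a shared 1.64% with Abca8b, which had between 2255 and 5723 counts, Kcnj10 shared 1.62% and Slc1a3 0.704%, and Aqp4, Apoe, Clu and Dkk3 shared none. On the opposite strand of Glul, Teddm2 had between 81 and 188 counts, at most 0.0821% of those of Glul. Within Slc1a3, Gm37310 had between 16 and 41 counts.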

How the data were processed

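Total RNA-seq of retina was analysed for 4 WT and 3 SCA7 homozygous knock-in mice. After ribosomal RNA depletion the authors made stranded libraries, and they deposited raw counts per Ensembl gene, whole numbers without normalization, for 52550 genes. The submitters' processing notes name bcl2fastq, TopHat2 2.0.14, Bowtie2 2.1.0, HTSeq 0.6.1 and mm10. The strand option of the counting is not given in the sources used here. Libraries held from 56497675 to 96635832 counts. Symbols, positions and lengths came from an annotation of GRCm38, which held 52403 of the genes.

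Genes were filtered by filterByExpr and compared by the robust quasi-likelihood test of edgeR 4.0.16 with TMM scaling, without covariates, and Benjamini-Hochberg adjustment over the 20128 genes tested. Adjusted p values are from this test unless a permutation test is named. The study's methods name DESeq2, which was run as an alternative (1.42.0), as was limma-voom (limma 3.58.1), in R 4.3.3. On simulated counts of 19792 genes edgeR recovered 190 of 200 genes changed by a log2 fold of 1, with 12 unchanged genes called. Intervals are 95% intervals of the fit. For levels and counts of a library, the SD over mice is the error given.

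The genes and the lists around them were chosen with earlier results of these data known. All 8 genes are named. Of the lists on glutamate, potassium, anchoring, water, lipids and Dickkopf genes the called genes are named, and of the marker lists at most the 3 called genes with the largest change. Genes with a similar pattern are the 2 nearest of each gene past the test. Alternatives were other scalings (DESeq2 size factors, upper quartile, TMM without the 100 genes with the most counts), other filters (any gene with 1 count or more, or a minimum of 10 counts per library), a block for the replicate number, an Xist covariate, a threshold of 0.01 for the adjusted p, calls without FC limits, and each library left out. Scaling by 14 other Müller glia markers was added after seeing the data. The sources name no batch. The single values of some genes are not reported here.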

Additional observations from a re-analysis of the deposited data

Results flagged for a closer look

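Dkk3 in WT retina had 1 library that stood apart. WT replicate 3 was at 1009.6 CPM, and its gap to the next library took 0.864 of the range of the 4 WT libraries, above the 95% critical value of Dixon's test. The summed level of the 10 retinal pigment epithelium markers had another, again WT replicate 3, at 172 CPM, where the gap took 0.873 of the range. These were 2 of the 32 groups of values tested, and chance gives about 1 in 20. Without WT replicate 3 the log2 fold change of Dkk3 was -0.01 with an adjusted p of 0.957 (edgeR).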

How the results depend on the processing

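Clu stayed past the threshold under all 18 alternatives tried for it. Under scaling by the other Müller glia markers Slc1a3, Aqp4, Kcnj10 and Abca8a were at -0.089, 0.039, 0.058 and 0.032. These values were within 1 standard error of 0, so that the direction of the 4 genes was not resolved. Under that scaling 677 genes were upregulated and 4197 downregulated, and of the 8 homeostatic genes 1 was upregulated and 1 downregulated, because the factors shift all genes downwards. Without FC limits 2853 genes were higher and 2852 lower, among them 5 and 1 of the 8 genes. With an adjusted p under 0.01, 1154 genes were upregulated and 1071 downregulated, and Glul, Kcnj10 and Abca8a lost their significance. With each library left out in turn, upregulated genes numbered 1215 to 1559 and downregulated genes 1196 to 1731. The number of upregulated homeostatic genes was then 1 to 3, with 1 without WT replicate 2 and 3 without WT replicate 4, and that of downregulated ones 0. Deviations of same-numbered WT and SCA7 libraries had correlations of -0.08, 0.49 and 0.03, and SCA7 replicates 1 and 3 correlated best with WT mice of other numbers. These correlations cannot show whether the mice were paired. Mouse numbers in the sample titles lie close together for same-numbered WT and SCA7 mice, but the sources used here do not state a pairing. With the replicate block 1629 genes were upregulated and 1706 downregulated, and 3 of the 8 genes were upregulated, the third being Kcnj10 at 0.39. Other scalings, filters and tools left 2 genes upregulated and 0 downregulated. With Slc1a3 as the denominator the ratio of Dkk3 reversed to -0.23.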
